A study of Homo sapiens with 62 samples.

Results

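The genes of the hemidesmosome and of laminin-332 were followed through a SLAM-seq experiment in which the transcription factor KLF5 was degraded, the RUVBL1/2 ATPase was inhibited or the kinase CDK9 was inhibited in 2 pancreatic ductal adenocarcinoma (PDAC) lines. The 9 genes were chosen by name, of 29794 in the tables: LAMA3 and LAMB3, which encode the α3 and β3 chains of laminin-332, ITGA3, ITGA6 and ITGB4, which encode laminin-binding integrin subunits, CD151, a tetraspanin that associates with them, COL17A1, a transmembrane collagen, and DST and PLEC, which encode cytoskeletal linkers of the plakin family. The choice was made with earlier results of these data known, so the list is not independent of them. All 9 genes were present in every table, and all 9 passed the filter on low counts in each of the 7 contrasts.

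Laminin-332 is a heterotrimer with an α3 and a β3 chain that epithelial cells deposit into the basement membrane. Integrin α6β4 binds it from the basal cell surface and integrin α3β1 does so at other adhesion sites. In the hemidesmosome, the cytoplasmic tail of integrin β4 binds plectin, the product of PLEC, and the epithelial isoform of dystonin, the product of DST, so that keratin filaments are tied to the basement membrane. The collagen encoded by COL17A1 spans the plasma membrane and joins the same structure. These genes are known from basal keratinocytes and other epithelia that rest on a basement membrane.

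Both lines, AsPC-1, used in the study for the classical subtype of the disease, and T3M-4, used for the basal-like subtype, carried KLF5 fused to FKBP12-F36V and FLAG with the endogenous KLF5 gene targeted by an sgRNA, and this genotype was shared by every group. Cells received dTAGv-1, which degrades the fusion protein (dTAG), or its inactive analogue dTAGv-1-NEG (NEG) for 4 h, with 10 libraries each in AsPC-1 and 4 each in T3M-4. CB-6644, an inhibitor of RUVBL1/2, and NVP-2, an inhibitor of CDK9, were compared with DMSO. CB-6644 and DMSO had 5 libraries each at 4 h and 4 each at 12 h in AsPC-1, and 4 each at 4 h in T3M-4, and NVP-2 had 4 libraries at 4 h in each line. Newly made RNA was labelled with 4-thiouridine for 2 h and read as T>C conversions in 3′ end libraries, so that each gene has a count of T>C reads and a count of all reads. Values of T>C reads are given as T>C CPM, in which the counts of a library are divided by its total and scaled by TMM within the groups compared. A gene was called at a Benjamini-Hochberg adjusted p under 0.05 in edgeR's quasi-likelihood test over all genes.

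A library of AsPC-1 held 2240998 to 18311982 T>C reads and a library of T3M-4 3714015 to 27982537, and the lowest of these were NVP-2 libraries. The libraries of AsPC-1 fell into 2 sets by the reads of DCLK1, 25 low and 17 high with a wide gap between them. The sets cut across treatments and were balanced between dTAG and NEG (4 high libraries of 10 in each). At 4 h, 2 of 5 CB-6644, 2 of 4 NVP-2 and 1 of 5 DMSO libraries were high. At 12 h, 2 of 4 were high in CB-6644 and 2 of 4 in DMSO. The sets are used here as a block, to repeat a fit within a set or to describe values by set. The first digit of a replicate number is called its experiment here. In T3M-4, experiments 1 and 2 were batches 1 and 2 of the labels, and in AsPC-1, batch 2 held experiment 3 of dTAG and NEG, the 12 h libraries and NVP-2. The paper's legends give 2 biological replicates for each condition, with 3 independent experiments in AsPC-1 and 2 in T3M-4. The labels do not say which libraries were separate cultures, so p-values measure the spread between libraries. Keratins KRT8, KRT18 and KRT19 were abundant in both lines, with control medians from 443 to 2667 CPM of all reads. EPCAM and CDH1, also epithelial markers, had medians of 248 and 15.7 CPM in AsPC-1 and 35.1 and 31.5 in T3M-4. Of 5 classical markers, HNF4A and LGALS4 had medians of 16.6 and 114 CPM in AsPC-1 and 0.186 and 0.276 in T3M-4. The others differed less, with GATA6 at 4.51 and 1.88, TFF1 at 1.45 and 0.675 and AGR2 at 49.5 and 38.9. The basal-like markers TP63, KRT5, KRT6A and KRT17 had medians of 27 to 792 CPM in T3M-4 and of 0 to 0.124 in AsPC-1. S100A2, the fifth marker of that list, was detected in both, with a median of 27.1 CPM (14.1 to 56.9) in AsPC-1 and 1999 in T3M-4. Of 6 markers of other cell types, the leukocyte and endothelial genes PTPRC and PECAM1 and the stromal genes COL1A2, DCN and PDGFRB were under 1 CPM in every control library of both lines. The stromal collagen gene COL1A1 had 5.48 to 8.58 CPM in T3M-4 (median 7.11) and at most 0.0364 in AsPC-1, and its part in the results was not tested.

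LAMB3 (ENSG00000196878.15) lies at chromosome 1, 209614870 to 209652425 on the minus strand, LAMA3 (ENSG00000053747.17) at chromosome 18, 23689453 to 23956222 on the plus strand, and COL17A1 (ENSG00000065618.21) at chromosome 10, 104031286 to 104085880 on the minus strand (GENCODE v44, GRCh38). Promoters of 5 of the 9 genes were matched in the RefSeq table of GRCh38.p14. The 250 bases upstream of the start are shown for LAMA3 and LAMB3, whose new RNA fell after KLF5 degradation, and for COL17A1, which was not called. The LAMA3 sequence is chr18:23872770-23873019 on the plus strand and belongs to the internal start at 23873020, 183567 bases downstream of the first base of the gene. The LAMB3 sequence is chr1:209652426-209652675 and the COL17A1 sequence is chr10:104085881-104086130, both on the minus strand. Capitals mark matches to CCNCNCCC, a GC-rich pattern of the kind that Krüppel-like factors bind, or to TGANTCA, the AP-1 pattern, on either strand.
LAMA3: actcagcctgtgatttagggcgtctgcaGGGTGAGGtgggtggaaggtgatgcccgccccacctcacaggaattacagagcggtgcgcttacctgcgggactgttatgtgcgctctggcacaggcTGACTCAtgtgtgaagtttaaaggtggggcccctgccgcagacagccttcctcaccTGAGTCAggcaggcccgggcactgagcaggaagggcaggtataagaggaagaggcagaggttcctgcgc
LAMB3: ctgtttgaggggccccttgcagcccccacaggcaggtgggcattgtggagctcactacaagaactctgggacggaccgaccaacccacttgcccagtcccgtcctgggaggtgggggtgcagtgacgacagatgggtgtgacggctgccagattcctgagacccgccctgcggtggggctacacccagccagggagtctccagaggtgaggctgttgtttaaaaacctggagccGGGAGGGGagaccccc
COL17A1: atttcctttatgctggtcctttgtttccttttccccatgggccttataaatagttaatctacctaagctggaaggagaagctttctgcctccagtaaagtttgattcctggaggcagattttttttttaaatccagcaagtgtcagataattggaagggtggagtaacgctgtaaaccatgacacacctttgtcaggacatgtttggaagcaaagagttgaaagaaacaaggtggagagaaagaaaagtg
LAMA3 held 1 match to CCNCNCCC, at -222 to -215 from the start, and 2 matches to TGANTCA, at -125 to -119 and -69 to -63. LAMB3 held 1 match to CCNCNCCC, at -16 to -9, and no TGANTCA at this start. COL17A1 held neither pattern. Of the genes not shown, DST, which was not called, held 6 overlapping or separate matches to CCNCNCCC at its first start and no TGANTCA, while ITGA6, which fell in AsPC-1, held neither pattern at its first start and 3 overlapping matches to CCNCNCCC at its second. At the LAMB3 start 209652329, which is 96 bases downstream, CCNCNCCC lay at -112 to -105, with no TGANTCA. This is the same stretch as that at -16 to -9 from the first start. At the LAMB3 start 209651374, TGANTCA lay at -67 to -61 and CCNCNCCC at -52 to -45. Whether the patterns go with the calls was not tested. Among 35116 promoter windows of the same length, 53.4% held CCNCNCCC and 6.57% held TGANTCA. These matches describe the letters and are no measure of binding.

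In the 4 h control libraries, both laminin chains were higher in T3M-4 and the tetraspanin, collagen XVII and dystonin were higher in AsPC-1. Of the 9 genes, 8 differed between lines in all reads, 5 higher and 3 lower in T3M-4, and 71.6% of all genes tested did so. LAMA3 had 5.51 to 46.1 CPM of all reads in the 15 AsPC-1 libraries (median 20.4) and 50.3 to 72.5 in the 8 T3M-4 libraries (median 63.7), without overlap. It was 2.82-fold higher in T3M-4 (log2 1.5, SE 0.24, adjusted p = 5.31e-06). LAMB3 was 2.37-fold higher (adjusted p = 1.37e-04) and ITGA3 2.16-fold higher (adjusted p = 3.40e-04), each with overlapping libraries. The T3M-4 libraries of experiment 1 had 110.4 to 212 CPM of ITGA3, within the AsPC-1 range of 64.6 to 217, and those of experiment 2 had 397 to 491, above it. In T>C reads the ITGA3 difference was 0.42 and was not called (adjusted p = 0.187). CD151 ran the other way, with 224 to 574 CPM in AsPC-1 and 125 to 175 in T3M-4, and was 2.63-fold lower in T3M-4 (log2 -1.4, SE 0.13, adjusted p = 9.17e-10). COL17A1 was 2.21-fold lower and DST 2.04-fold lower in T3M-4, with adjusted p of 3.06e-04 and 2.84e-08. ITGA6 and PLEC were higher in T3M-4 by less than the other called genes (log2 0.41 and 0.33). The ITGA6 call was lost in the DMSO libraries alone (0.23, adjusted p = 0.311) and the PLEC call in the NEG libraries alone (0.32, adjusted p = 0.0829). The libraries of LAMA3, CD151 and DST did not overlap between lines, 3 of 9 genes, beside 33.2% of all genes. ITGB4, the subunit particular to the hemidesmosomal integrin, had medians of 656 and 755 CPM and a difference of 0.05 (SE 0.18, adjusted p = 0.827).

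**Figure D1:**
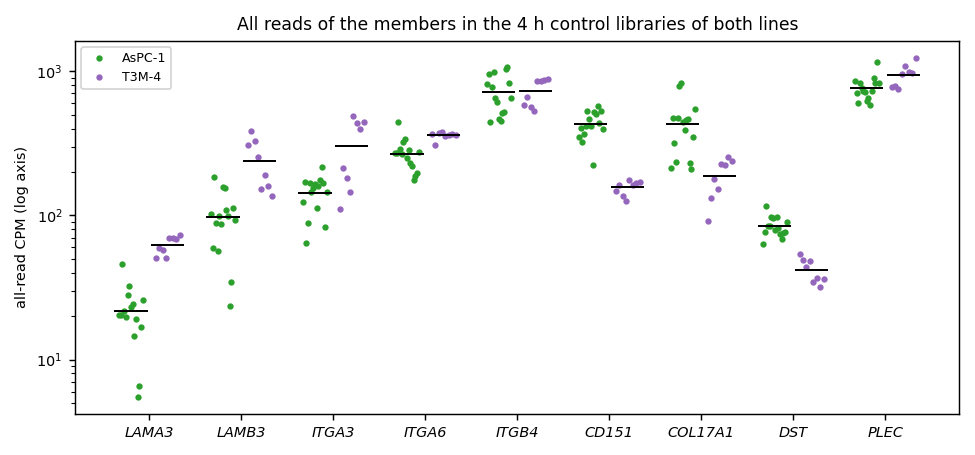
All-read CPM (log axis) of the 9 genes in the 4 h NEG and DMSO libraries of AsPC-1 (15, green) and T3M-4 (8, purple), with a point per library and a line at the mean. The LAMA3, CD151 and DST libraries of the lines do not overlap, and the ITGB4 libraries of T3M-4 (525.6 to 882) lie inside the AsPC-1 range (443 to 1077).

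After 4 h of KLF5 degradation, new RNA of LAMA3, ITGA6, ITGB4 and PLEC fell in AsPC-1, and that of LAMA3 and LAMB3 fell in T3M-4. In AsPC-1, 4 of 9 genes were called, all lower, where 2.4% of all genes were called, 1.94% lower and 0.462% higher. In T3M-4, 2 of 9 were called, both lower, with 0.834% of all genes (0.745% lower, 0.0894% higher). The median log2 fold change of the 9 genes was -0.62 in AsPC-1 and -0.73 in T3M-4, beside 0.03 and 0.01 over all genes tested. In T3M-4 the libraries of 6 genes did not overlap between groups, namely LAMA3, LAMB3, ITGA6, ITGB4, COL17A1 and PLEC, where 5.74% of all genes tested did not overlap. KLF5 itself is no check of the degradation, since the degrader acts on the protein, and its T>C reads were higher after dTAG in both lines (log2 0.60 and 0.90).

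Of the laminin chains, LAMA3 moved most. In AsPC-1 its T>C CPM ran from 2.44 to 18.5 with a median of 8.66 in dTAG libraries, and from 16.2 to 77.6 with a median of 40.2 in NEG libraries. Only the highest dTAG library, 3.4, reached the range of the NEG libraries. The 4.67-fold fall (log2 fold change -2.22, SE 0.35, adjusted p = 6.36e-04) held a lower mean in each of the 3 experiments, at -2.81, -1.05 and -2.39 on the log2 scale. In T3M-4, LAMA3 had 22.3, 36.6, 35.8 and 36.2 T>C CPM in the dTAG libraries 1.1, 1.2, 2.1 and 2.2 and 93, 96.9, 148 and 127 in the NEG libraries of the same numbers. The groups were well apart, and LAMA3 ranked 16 of 13424 genes by p (log2 fold change -1.83, SE 0.24, adjusted p = 0.00923).

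LAMB3 fell by a similar amount in T3M-4, from 521, 402, 378 and 275 T>C CPM in NEG to 169, 178, 117 and 76.6 in dTAG libraries. Every dTAG library lay below every NEG library (log2 fold change -1.54, SE 0.29, adjusted p = 0.0401), but the call was lost when any single library of either group was left out. In AsPC-1 the NEG libraries of LAMB3 ran from 24.6 to 169 with a median of 65.3 and the dTAG libraries from 14.2 to 76.3 with a median of 24. The spread within each group was wide, the ranges overlapped and the change of -1.13 (SE 0.35, adjusted p = 0.104) missed the threshold. In experiment 3 the spread followed the library set. The NEG libraries there had 24.6 and 36.9 T>C CPM in the DCLK1-low set and 169 and 132 in the DCLK1-high set. Over the 4 h control libraries of AsPC-1, the LAMB3 medians of all reads were near each other, at 93.5 CPM (low) and 99.3 CPM (high). With the experiment as a replicate block, LAMB3 was called in AsPC-1 (log2 fold change -1.2, adjusted p = 0.0384). Its mean difference was -1.19 in the low set and -1.1 in the high set.

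Among the integrin subunits, the pair that forms α6β4 fell in AsPC-1 and ITGA3, the α subunit of α3β1, was not called in either line. ITGB4 had T>C CPM from 165 to 391 with a median of 245 in the dTAG libraries of AsPC-1, and from 339 to 702 with a median of 516 in NEG. The ranges overlapped in few libraries, with 7 of 10 dTAG libraries below all NEG libraries, and the fall was 1.93-fold (log2 fold change -0.95, SE 0.18, adjusted p = 0.00304). ITGA6, whose 3′UTR overlaps the antisense gene PDK1-AS1 by 52 bases, ran from 108 to 259.7 with a median of 166 in dTAG and from 186 to 371 with a median of 295 in NEG libraries, a fall of 1.54-fold (log2 fold change -0.62, SE 0.16, adjusted p = 0.0378). In T3M-4, ITGA6 had 191, 251, 157 and 169.7 T>C CPM in dTAG and 390.0, 392, 335 and 350.0 in NEG libraries. ITGB4 had 338, 232, 341 and 348 in dTAG and 403, 451, 556 and 670.1 in NEG libraries of that line. Both were without overlap and neither was called, at -0.93 (SE 0.19, adjusted p = 0.0555) for ITGA6 and -0.73 (SE 0.21, adjusted p = 0.255) for ITGB4.

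ITGA3 varied between libraries more than between groups. In T3M-4 its T>C CPM were 91.5, 112, 425 and 492 in dTAG and 245, 195, 502 and 649 in NEG libraries, so that experiment 2 was above experiment 1 in both groups, and the change was -0.51 (SE 0.57, adjusted p = 0.999). In AsPC-1 the change was -0.21 (SE 0.33, adjusted p = 0.892), with experiment means of 0.08, 0.41 and -1.38 that differed in sign. CD151, the tetraspanin, changed by 0.16 (SE 0.14, adjusted p = 0.775) in AsPC-1 and by -0.20 (SE 0.25, adjusted p = 0.999) in T3M-4, with overlapping groups in both.

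The plakins differed from each other. PLEC, which encodes plectin, had T>C CPM from 199.7 to 345 with a median of 256 in the dTAG libraries of AsPC-1, and from 351 to 809 with a median of 444 in NEG. It was the only one of the 9 genes whose groups did not overlap in AsPC-1 (log2 fold change -0.83, SE 0.14, adjusted p = 0.00129), where 0.427% of all genes did not. In T3M-4 it had 535, 368, 438 and 497 in dTAG and 637, 732, 987 and 1138 in NEG libraries, also without overlap, and a change of -0.93 (SE 0.22, adjusted p = 0.116). Every PLEC count in these tables was a multiple of 9 (the cause was not tested). Divided by 9, the counts gave PLEC the same calls in all 7 contrasts. DST, which encodes dystonin, changed by 0.07 (SE 0.12, adjusted p = 0.909) in AsPC-1 and 0.25 (SE 0.33, adjusted p = 0.999) in T3M-4. COL17A1 changed by -0.42 (SE 0.24, adjusted p = 0.532) in AsPC-1. In T3M-4 its dTAG libraries had 59.2, 56.9, 53.1 and 49.7 T>C CPM and its NEG libraries 70.8, 62.7, 77.5 and 61.9, a small shift without overlap that was not called (log2 fold change -0.32, SE 0.17, adjusted p = 0.814).

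**Figure D2:**
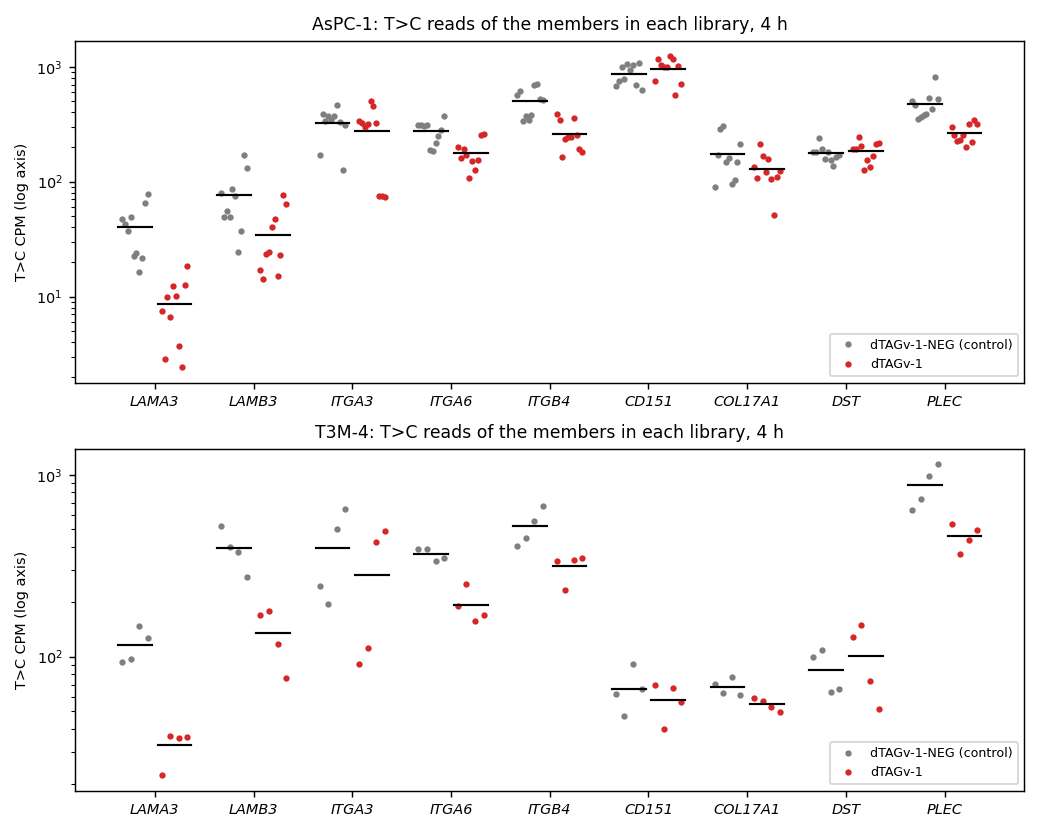
T>C CPM (log axis) of the 9 genes in each dTAGv-1 (red) and dTAGv-1-NEG (gray) library after 4 h, with a line at the mean, in AsPC-1 (10 libraries a group) and T3M-4 (4 a group). LAMA3 is lower after dTAG in both lines, at medians of 8.66 against 40.2 and 36 against 112, while the DST and CD151 groups overlap.

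Experiments paired dTAG with NEG libraries. With the experiment as a replicate block, 5 of 9 genes were called in AsPC-1 and 5 in T3M-4, and they were the same 5 genes in both lines: LAMA3, LAMB3, ITGA6, ITGB4 and PLEC. The block called 3.82% of all genes in AsPC-1 and 2.64% in T3M-4. In T3M-4 the block added ITGA6 (adjusted p = 0.00359), ITGB4 (adjusted p = 0.0315) and PLEC (adjusted p = 0.0192). The library set together with the experiment as a block gave the same count of 5 in AsPC-1, with 7.79% of all genes. Without experiment 1, 0 of the 9 genes were called in AsPC-1 (0.305% of all genes, 995 at an unadjusted p under 0.05 by edgeR), and without experiment 3, 2 (0.888%). LAMA3, LAMB3, ITGA6, ITGB4 and PLEC had a lower mean after dTAG in all 3 experiments. So did COL17A1, which was not called (-0.53 to -0.16). The share of all genes lower in all 3 experiments was not counted. Within batch 1 of AsPC-1, LAMA3 changed by -2.19 (adjusted p = 0.00368) and within batch 2 by -2.3 (adjusted p = 0.341). In T3M-4 it changed by -1.67 (adjusted p = 0.0640) and -1.92 (adjusted p = 0.0166). The effect of dTAG was not called different between lines for any of the 9 genes, where 0.0426% of all genes were. The smallest p belonged to CD151 (difference -0.34, SE 0.28, unadjusted p = 0.234), and for LAMA3 the difference was 0.42 with an SE of 0.56.

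In the pool of all reads, which holds older RNA as well, fewer of the 9 genes were called. In AsPC-1, 1 of 9 genes was called in all reads, PLEC (-0.65, SE 0.11, adjusted p = 0.00217), beside 0.797% of all genes, and in T3M-4 0 of 9, beside 0.0191%. LAMA3 changed by -0.73 (SE 0.31) and -0.70 (SE 0.34) in all reads of the lines, and LAMB3 by -0.38 (SE 0.26) and -0.70 (SE 0.31). The labelled share, the percentage of a gene's reads in a library that carry T>C conversions, joins both counts and needs no library total. In AsPC-1 it was 6.61% ± 3.26 (SD, n = 9) for LAMA3 after dTAG and 22% ± 7.98 (n = 10) in NEG, and 4.69% ± 2.08 and 8.96% ± 2.52 for LAMB3. ITGB4 went from 6.32% ± 0.612 in NEG to 3.35% ± 0.546 in dTAG, with a highest dTAG library of 4.15% and a lowest NEG library of 5.28%. CD151 was at 16.5% ± 2.31 and 17.3% ± 1.68.

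By limma on the log-odds of the share, 7 of 9 genes fell in AsPC-1, all but ITGA3 and CD151, beside 43.6% of all genes called, and the median gene changed by -0.32 on the log2-odds scale. Centred on the median gene of each library, 2 of 9 were called, LAMA3 (-1.74, adjusted p = 0.00934) and ITGB4 (-0.66, adjusted p = 0.00334), beside 0.82% of all genes. In T3M-4 none of the 9 was called (0.0245% of all genes, and 886 genes at an unadjusted p under 0.05). LAMB3 had 13.7, 12.6, 11.8 and 10.3% of its reads labelled in the dTAG libraries and 19.6, 19.6, 25.5 and 21.5% in the NEG libraries of T3M-4, which did not overlap (log2-odds -0.996, SE 0.17, adjusted p = 0.150). For LAMA3 the shares were 17, 13.6, 8.88 and 7.51% and 19.96, 23.9, 23.5 and 18.7%.

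**Figure D3:**
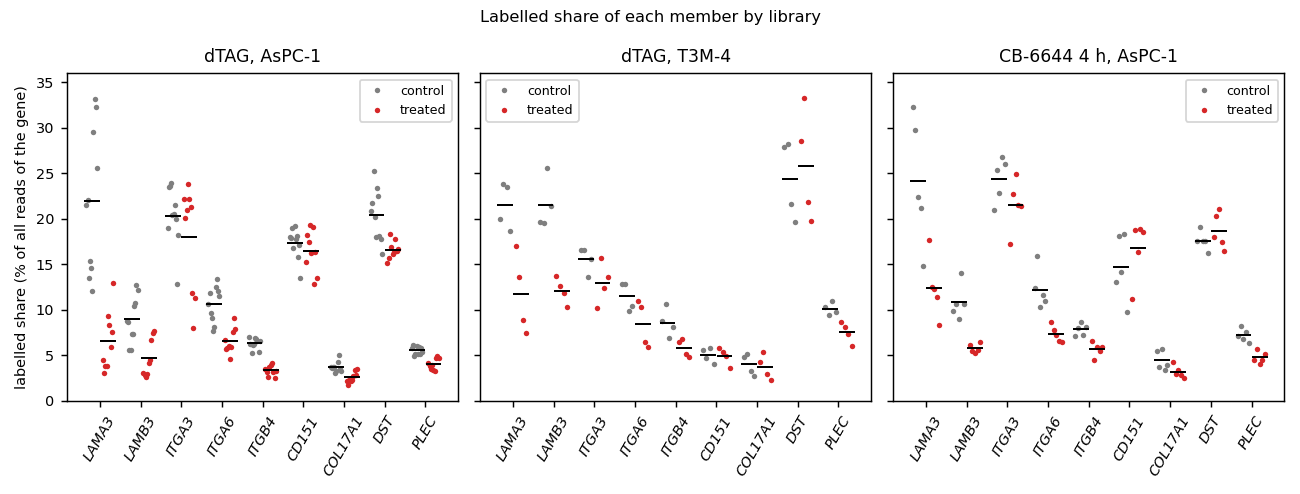
Labelled share of the 9 genes (%, reads with T>C conversions among the reads of the gene) in each control (gray) and treated (red) library, with a line at the mean, for dTAG in AsPC-1 (9 against 10 libraries), dTAG in T3M-4 (4 against 4) and CB-6644 at 4 h in AsPC-1 (5 against 5). LAMA3 and LAMB3 have lower means in the treated libraries of all 3 panels, and the CD151 groups overlap in each.

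In the wider adhesion list of 54 genes (other laminin chains, integrins and plakins, basement membrane, focal adhesion adapters, and tetraspanins with sheddases), 4 of 41 tested genes fell and 1 rose after dTAG in AsPC-1, and 6 of 51 fell and 0 rose in T3M-4. Over all genes tested, 1.94% fell and 0.462% rose in AsPC-1, and 0.745% and 0.0894% did so in T3M-4. The median log2 fold changes of the list were -0.14 and -0.22, beside 0.03 and 0.01 over all genes. LAMA5, the α5 laminin chain, fell in both lines, with log2 fold changes of -1.16 (SE 0.16, adjusted p = 1.43e-04) in AsPC-1 and -1.32 (SE 0.19, adjusted p = 0.0114) in T3M-4. In AsPC-1, TNS4, a tensin of focal adhesions, fell (log2 fold change -2.45, SE 0.32, adjusted p = 6.65e-05), and so did FERMT1, an integrin activator of the kindlin family (-1.4, SE 0.22, adjusted p = 5.08e-04). LAMB1, the β1 laminin chain, rose there (0.50, SE 0.13, adjusted p = 0.0379). In T3M-4 the tetraspanin CD9 fell (-1.27, SE 0.21, adjusted p = 0.0198).

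CB-6644 gave no call among the 9 genes in any of its 3 contrasts. At 4 h in AsPC-1, 0 of 9 genes were called beside 0% of all genes, with 482 genes at an unadjusted p under 0.05 by edgeR and 0 called by DESeq2. LAMB3 had the lowest p of the 9 and ranked 18 of 11649 genes. Its T>C CPM were 62.5, 74.1, 54.7, 71.8 and 72.7 in the CB-6644 libraries 1.1, 1.2, 1.3, 2.1 and 2.2 and 96.5, 56.1, 153, 236 and 170.3 in the DMSO libraries of the same numbers. The DMSO libraries spread widely and 1 of them, 1.2, lay within the CB-6644 range (log2 fold change -1.08, SE 0.31, unadjusted p = 0.00425, adjusted p = 0.979). DST, the other gene at an unadjusted p under 0.05, was higher by 0.52 (SE 0.24, adjusted p = 0.979), with 0.92 and -0.17 in the 2 experiments. For LAMA3 the CB-6644 libraries had 52.9, 60.1, 51.1, 19.7 and 17.3 T>C CPM and the DMSO libraries 63.1, 53.9, 96.3, 52.8 and 37.8. Its low values under CB-6644 were both in experiment 2.

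In the labelled share, LAMB3 and ITGA6 came nearest to a call. LAMB3 had 6.18, 5.49, 5.32, 5.66 and 6.49% of its reads labelled after CB-6644 and 9.88, 10.6, 8.98, 14 and 10.6% in DMSO, without overlap, and kept 53.8% of the DMSO mean. ITGA6 had 8.69, 7.75, 7.28, 6.57 and 6.49% and 12.4, 15.9, 10.3, 11.6 and 10.9%. In all, the shares of 4 genes, LAMB3, ITGA6, ITGB4 and PLEC, did not overlap between groups, beside 7.93% of all genes, while the share of the median gene went from 15.2% to 13%. LAMA3 went from 24.1% ± 7.01 to 12.4% ± 3.36 (SD, n = 5 each). None was called, as with 0% of all genes (2668 at an unadjusted p under 0.05), and the nearest were LAMB3 (log2-odds -0.96, SE 0.15, adjusted p = 0.0544) and ITGA6 (-0.81, SE 0.16, adjusted p = 0.0639). Both were called among genes with at least 200 reads in every library (adjusted p = 0.0331 and 0.0412), beside 1.23% of those genes. Centred on the median gene of each library, the adjusted p of LAMB3 was 0.463.

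In T3M-4, 0 of 9 genes were called after CB-6644, beside 0% of all genes (569 at an unadjusted p under 0.05, and 5 called by DESeq2). LAMA3 had 63.7, 50.7, 121 and 112 T>C CPM after CB-6644 and 97.3, 90.7, 140.3 and 135 in DMSO libraries 1.1, 1.2, 2.1 and 2.2. Each CB-6644 library lay below the DMSO library of its number, the groups overlapped, and the change was -0.41 (SE 0.30, adjusted p = 0.994). LAMB3 changed by -0.38 (SE 0.26, adjusted p = 0.994) and ITGA6 by -0.32 (SE 0.20, adjusted p = 0.994). The labelled shares overlapped for all 9 genes, where 2.02% of all genes did not overlap, with 20.8% ± 1.37 and 20.8% ± 0.897 for LAMB3 (SD, n = 4 each), and none was called (0% of all genes, 324 at an unadjusted p under 0.05). The effect of CB-6644 was not called different between lines for any of the 9 (0% of all genes, 511 at an unadjusted p under 0.05). For LAMB3 the T3M-4 effect minus the AsPC-1 effect was 0.69 (SE 0.44, unadjusted p = 0.130).

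At 12 h in AsPC-1, 0 of 9 genes were called (0% of all genes, 473 at an unadjusted p under 0.05, and 20 called by DESeq2). All 9 had a log2 fold change below 0, as did 51.2% of all genes, with a median of -0.23 beside -0.01 over all genes. Between libraries of the same number, LAMA3, ITGB4 and DST were lower in 4 of 4 and LAMB3, ITGA3 and COL17A1 in 3. ITGA6 and PLEC were lower in 2 and CD151 in 1. LAMA3 had 13.9, 12.7, 41.6 and 46.9 T>C CPM in CB-6644 libraries 1 to 4 and 15.6, 15.6, 64.1 and 112 in DMSO libraries 1 to 4. LAMB3 had 23.1, 15.1, 136 and 151 and 21.1, 49.2, 175 and 152. For both laminin genes, libraries 3 and 4 of each group, which were in the DCLK1-high set, were above libraries 1 and 2, and ITGB4 was lower in them (525, 582, 404 and 374 and 721, 749, 496 and 424). The change of LAMA3 was -0.85 (SE 0.69, adjusted p = 0.998), and -0.62 with the set as a block (adjusted p = 0.638). Its labelled share was 17.9, 21.4, 24.3 and 22% after CB-6644 and 23.6, 31.3, 27.4 and 28.7% in DMSO, with no gene of the 9 called by share (0.00866% of all genes, 523 at an unadjusted p under 0.05). The effects at 12 h and 4 h were not called different for any of the 9 (0% of all genes, 414 at an unadjusted p under 0.05), and the lowest unadjusted p was that of DST, 0.0261 (difference -0.75, SE 0.31).

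**Figure D4:**
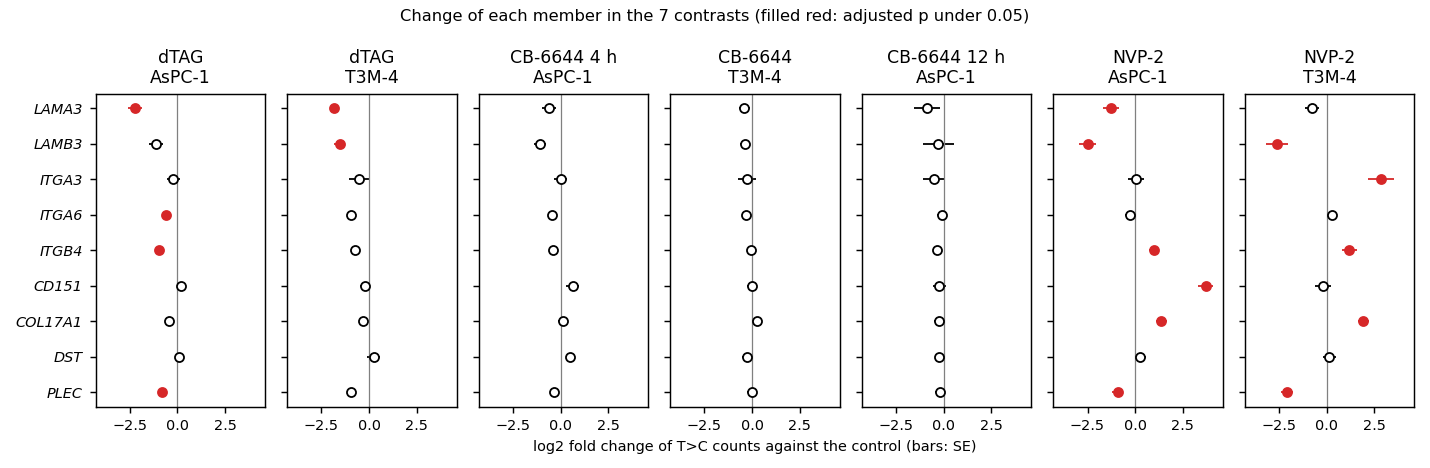
Log2 fold change of T>C counts of the 9 genes against the matched control in each of the 7 contrasts, with SE bars, filled red where the adjusted p was under 0.05. LAMA3 and LAMB3 lie below 0 in every panel. CD151 is at 3.7 after NVP-2 in AsPC-1 and at -0.20 in T3M-4.

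All 9 genes had a lower mean labelled share after NVP-2 in both lines. The share of a library fell from 10.1% ± 0.624 (SD, n = 5) to 1.57% ± 0.239 (n = 4) in AsPC-1, and from 12.4% ± 1.56 to 2.24% ± 0.417 (n = 4 each) in T3M-4. T>C CPM after NVP-2 are therefore shares of a much smaller pool, and a gene can rise on that scale while its labelled share falls. By share, 8 of 9 genes fell in each line, beside 97.5% of all genes called in AsPC-1 and 93.8% in T3M-4. The gene that was not called was CD151 in AsPC-1 and ITGA3 in T3M-4.

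The labelled share of CD151 stayed within the range of the DMSO libraries in AsPC-1 and fell in T3M-4. In AsPC-1, 11.6, 14.2, 12.2 and 15% of its reads were labelled after NVP-2 and 13.1, 18.1, 14.2, 18.3 and 9.78% in DMSO (log2-odds -0.15, SE 0.25, adjusted p = 0.582). Its T>C CPM were 2918, 6531, 4312 and 8284 after NVP-2 and 362, 539.9, 352, 679 and 191 in DMSO, 13-fold apart on this scale (log2 fold change 3.7, SE 0.41, adjusted p = 9.87e-05). Scaled by all reads, the change was 0.64 (adjusted p = 0.0943). In T3M-4 the share went from 5.1, 4.59, 4.94 and 4.43% in DMSO to 0.350, 0.304, 0.544 and 0.392% after NVP-2 (log2-odds -3.68, SE 0.37, adjusted p = 4.56e-05), and the T>C CPM changed by -0.20 (SE 0.42, adjusted p = 0.762). The difference between lines in the effect on T>C CPM was -3.93 (SE 0.60, adjusted p = 0.00233), and CD151 was the only one of the 9 called in that test, beside 0.851% of all genes.

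ITGA3 showed the reverse order. In T3M-4 its labelled share was 7.11, 17.2, 8.08 and 11.6% after NVP-2 and 21, 16.3, 16.1 and 15.4% in DMSO (adjusted p = 0.0658), and its T>C CPM were 424, 2261, 3941 and 4365 against 137, 215, 637 and 545 (log2 fold change 2.84, SE 0.70, adjusted p = 0.0132). The change scaled by all reads was -0.07 (adjusted p = 0.901), so its direction depended on the scaling. In AsPC-1 the share fell from 24.4% ± 2.43 to 4.43% ± 1.9 and the T>C CPM changed by 0.04 (SE 0.41, adjusted p = 0.946). The difference between lines was 2.77 (SE 0.83, adjusted p = 0.123), and 2.91 with experiment as a replicate block (adjusted p = 0.0217). In AsPC-1 that block joined NVP-2 and DMSO libraries of the same experiment number but of different batches. Their deviations were unrelated (r = -0.00449), so the call with the block does not rest on a true pairing. No library without 4-thiouridine was used here, so that background conversions and new RNA cannot be told apart at these low shares.

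On the T>C CPM scale, 6 of 9 genes were called in AsPC-1 (3 higher, 3 lower) beside 30.5% of all genes (12.9% higher, 17.6% lower), and 5 of 9 in T3M-4 (3 higher, 2 lower) beside 26.7% (12.4% higher, 14.2% lower). LAMB3 was lower relative to the pool in both lines. It had 9.82, 18.6, 30.1 and 25.9 T>C CPM after NVP-2 and 80.5, 46.4, 126, 196 and 142 in DMSO in AsPC-1 (log2 fold change -2.49, SE 0.45, adjusted p = 0.00191). In T3M-4 it had 109, 66.6, 9.38 and 53 and 389.6, 491, 242 and 329 (log2 fold change -2.61, SE 0.58, adjusted p = 0.00813). The groups did not overlap in either line, and scaled by all reads the log2 fold changes were -5.5 and -5.38. PLEC had log2 fold changes of -0.92 and -2.09 (adjusted p = 0.0278 and 0.00138), and LAMA3 had -1.28 in AsPC-1 (adjusted p = 0.0336) and -0.78 in T3M-4 (adjusted p = 0.144). The AsPC-1 call of LAMA3 was lost without any one of the DMSO libraries 1.1, 1.2, 1.3 and 2.1 or the NVP-2 libraries 1.1, 1.2 and 2.2, and that of PLEC without DMSO 1.1, 1.2 or 2.1 or NVP-2 1.1, 1.2 or 2.1. LAMA3 was called in T3M-4 without NVP-2 library 2.2 (log2 fold change -1.2, adjusted p = 0.0217).

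COL17A1 and ITGB4 were higher relative to the pool in both lines. For COL17A1 the changes were 1.38 (SE 0.27, adjusted p = 0.00315) in AsPC-1 and 1.91 (SE 0.29, adjusted p = 0.00134) in T3M-4, and for ITGB4 0.99 (SE 0.27, adjusted p = 0.0172) and 1.19 (SE 0.38, adjusted p = 0.0420). The T3M-4 call of ITGB4 was lost without any one of the 4 DMSO libraries or the NVP-2 libraries 2.1 and 2.2. Scaled by all reads, the log2 fold changes turned negative, to -1.66 and -1.04 for COL17A1 and -2.003 and -1.79 for ITGB4, in the order AsPC-1 and T3M-4, where the median of all genes moved to -3.08 and -2.99. The labelled share of COL17A1 went from 4.47% ± 1.05 to 1.45% ± 0.600 in AsPC-1. It kept 32.5% of its control share there and 29.3% in T3M-4, while PLEC kept 6.17% and 3.87%. In all reads, 2 of 9 genes were called in AsPC-1, CD151 (0.81) and LAMB3 (-1.43), beside 11.8% of all genes, and 0 of 9 in T3M-4, beside 5.16%. The NVP-2 libraries of AsPC-1 were all in batch 2 and the DMSO 4 h libraries in batch 1, which cannot be told apart from the treatment. Against the NEG libraries of experiment 3, which were in batch 2, 3 of 9 genes were called, CD151, COL17A1 and PLEC, beside 28.4% of all genes. Against the DMSO libraries of 12 h, also of batch 2 but of another duration, 4 of 9 were called, beside 25%. These were LAMB3 (-1.87, adjusted p = 0.0479), CD151 (2.93), COL17A1 (1.62) and PLEC (-1.35).

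**Figure D5:**
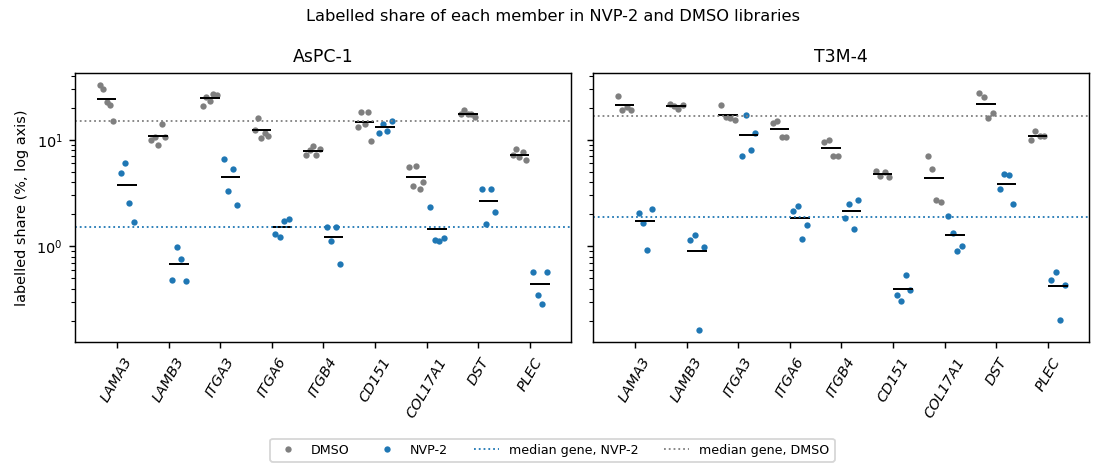
Labelled share (%, log axis) of the 9 genes in each DMSO (gray) and NVP-2 (blue) library of AsPC-1 (5 and 4 libraries) and T3M-4 (4 and 4), with a line at the mean and dotted lines at the mean share of the median gene. CD151 in AsPC-1 stays within the DMSO range and ITGA3 in T3M-4 overlaps it. After NVP-2, the means of LAMB3, ITGA6, COL17A1 and PLEC lie below the median gene in both lines, ITGA6 in AsPC-1 only just (1.51% against 1.52%). ITGA6, COL17A1 and PLEC lie below it in DMSO as well. COL17A1 kept 32.5% and 29.3% of its DMSO share in AsPC-1 and T3M-4, where the median gene kept 11.9% and 12.5%.

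In the wider adhesion list, 5 of 44 tested genes were higher and 1 lower in T>C CPM after NVP-2 in AsPC-1, and 13 of 52 higher and 2 lower in T3M-4, all relative to the smaller pool. Over all genes tested, 12.9% were higher and 17.6% lower in AsPC-1, and 12.4% and 14.2% in T3M-4. CD81, a tetraspanin related to CD151, was higher in both lines, by 2.18 (SE 0.36, adjusted p = 0.00118) and 2.04 (SE 0.29, adjusted p = 9.54e-04). The sheddases ADAM9 (1.73, SE 0.27, adjusted p = 8.67e-04) and ADAM10 (1.6, SE 0.32, adjusted p = 0.00339) were higher in AsPC-1. AGRN, which encodes the basement membrane proteoglycan agrin (2.73, SE 0.35, adjusted p = 6.76e-04), and VCL, which encodes vinculin (2.31, SE 0.30, adjusted p = 7.36e-04), were higher in T3M-4. TNS4 was lower in both lines (-3.04, SE 0.35, adjusted p = 1.17e-04 in AsPC-1 and -2.59, SE 0.36, adjusted p = 9.39e-04 in T3M-4), and NID2, the basement membrane linker nidogen-2, was lower in T3M-4 (-1.47, SE 0.50, adjusted p = 0.0489). The list gave 0 calls in any contrast of CB-6644, with the counts over all genes as above.

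Across libraries other than NVP-2, the 9 genes did not move as a single group. Pearson's r of log2(T>C CPM + 1) is given as a description over libraries of both lines (38 for AsPC-1, 16 for T3M-4), which share treatments, experiments and library sets. LAMA3 and LAMB3 had r of 0.81 in AsPC-1 and 0.67 in T3M-4, and LAMA3 and ITGA6 had 0.86 and 0.88. Genes whose products bind each other varied in r. ITGB4 and PLEC had 0.74 and 0.95, ITGA6 and ITGB4 had 0.38 and 0.65, and ITGB4 and DST had -0.37 and -0.57. At the other end, ITGA3 and DST had -0.83 in T3M-4 and ITGA6 and CD151 had -0.59 in AsPC-1. The median over the 36 pairs was 0.07 in AsPC-1 and 0.27 in T3M-4. Among the genes with a mean of at least 10 T>C CPM, 8004 in AsPC-1 and 8120 in T3M-4, the pattern most like LAMA3 was that of SLC2A1 in AsPC-1 (r = 0.93) and of KRT6A in T3M-4 (0.97). For LAMB3 it was GCNT3 (0.91) and PPL (0.95), the latter encoding the plakin periplakin. For ITGA6 it was SLK (0.90) and THBD (0.96), for ITGB4 it was AHNAK2 (0.87) and S100A16 (0.96), and for PLEC it was FBLIM1 (0.84) and HR (0.97). The leading gene for ITGA3 in AsPC-1 was PRKAR1B (0.92), and those for CD151 were ENO1 (0.85) and DHX8 (0.87). COL17A1 was nearest to PHETA1 (0.91) and PIP5K1A (0.81), and DST to BLOC1S5-TXNDC5 (0.71) and MARCKS (0.92).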

How the data were processed

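SLAM-seq counts of 62 libraries in 12 groups were used. The authors labelled cells for 2 h, made QuantSeq 3′ libraries, and counted reads with slamdunk (default settings) in the 3′UTR exons of GENCODE v44 (hg38), adding these up for each gene. The deposited values are raw counts of T>C reads and of all reads. The all-read column of AsPC-1 dTAG library 3.1, 1 column, repeated the T>C values of another library and was not used. T>C counts were tested with edgeR 4.0.16 in R 4.3.3 (filterByExpr, TMM, glmQLFit, glmQLFTest; the 2 groups of a contrast only), differences between lines as interaction terms, and labelled shares with limma 3.58.1 on log2((T>C + 0.5)/(all - T>C + 0.5)) for genes with at least 50 reads in every library. The lines were compared in all reads of the 4 h NEG and DMSO libraries with the control treatment as a covariate. An SE is the fold change over the square root of F. DESeq2 1.42.0 was an alternative. Same-numbered experiments deviated together (r from 0.32 to 0.65, except NVP-2 in AsPC-1, -0.00449), and batches of the labels follow them in T3M-4. Named genes are the 9 members, up to 3 genes of smallest p per direction from the adhesion list, and the gene most correlated with each member. Members and lists were chosen with earlier results of these data known. Some genes that these rules name are not reported here. Scripts were tested on simulated data.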

Additional observations from a re-analysis of the deposited data

Results flagged for a closer look

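Of 108 group-by-gene sets of T>C CPM in groups of 4 to 10 libraries, 8 held a library far from the rest, where chance gives about 1 in 20. Those above their group were ITGA3 in AsPC-1 DMSO 12 h library 1 at 495 T>C CPM (the others from 113 to 131), LAMA3 in AsPC-1 NVP-2 library 2.1 at 41.4 T>C CPM, and PLEC in AsPC-1 NEG library 3.3 at 809 T>C CPM. Those below were COL17A1 in AsPC-1 DMSO 4 h library 1.1 at 113 T>C CPM, ITGA3 in AsPC-1 CB-6644 4 h library 1.1 at 121 T>C CPM, ITGB4 in AsPC-1 NVP-2 library 2.2 at 466.4 T>C CPM, ITGB4 in T3M-4 dTAG library 1.2 at 232 T>C CPM and LAMA3 in T3M-4 dTAG library 1.1 at 22.3 T>C CPM.

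The effect of NVP-2 on CD151 differed between lines by -3.93 on the log2 scale (T3M-4 minus AsPC-1, adjusted p = 0.00233 by edgeR's interaction term), with T>C CPM higher than every DMSO library in 4 of 4 NVP-2 libraries of AsPC-1. The AsPC-1 NVP-2 and DMSO libraries were in different batches. Against the DMSO 12 h libraries of the same batch the AsPC-1 effect was 2.93.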

How the results depend on the processing

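Of 152 counts of called genes recomputed, 117 stayed within 1.5 times the count reported and 35 did not. For dTAG in AsPC-1 (4 of 9 genes called), the count was 1 in all reads, 2 in batch 1 alone, 0 in batch 2 alone, 0 with counts summed per experiment and 5 when the sums had the experiment as a replicate block. It was 2 in the DCLK1-low and 2 in the DCLK1-high libraries alone (a split chosen after seeing the data). Leaving out 1 experiment gave 0 to 4. For dTAG in T3M-4 (2 of 9), it was 4 by DESeq2, 5 with the replicate block, 1 scaled by all reads, 0 in all reads, 0 and 4 in batches 1 and 2 alone, 0 with summed counts and 5 with summed counts and the block, and leaving out 1 library gave 1 to 2. For NVP-2 in AsPC-1 (6 of 9), it was 2 in all reads, 2 with summed counts, 2 with summed counts and the block, and 3 against the NEG libraries of batch 2, and leaving out 1 library gave 4 to 6. For NVP-2 in T3M-4 (5 of 9), it was 8 scaled by all reads, 0 in all reads and 0 with summed counts, and leaving out 1 library gave 4 to 5. The difference between lines in the effect of NVP-2 went from 1 to 2 genes with the replicate block. In AsPC-1 that block joined NVP-2 and DMSO libraries of different batches. By labelled share, centring gave 2 of 9 for dTAG in AsPC-1, 2 for NVP-2 in AsPC-1 and 5 in T3M-4, and the minimum of 200 reads gave 2 for AsPC-1 after 4 h of CB-6644. The CB-6644 counts of T>C reads were 0 throughout, leaving out libraries included (0 to 0).

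Directions that turned, for genes called on either side, were all in NVP-2 contrasts. With T>C counts scaled by all reads, the log2 values for NVP-2 in AsPC-1 were ITGA3 (-2.94), ITGB4 (-2.003), COL17A1 (-1.66) and DST (-2.72). In all reads, the log2 values for NVP-2 in AsPC-1 were PLEC (0.10). With T>C counts scaled by all reads, the log2 values for NVP-2 in T3M-4 were ITGA3 (-0.0743), ITGA6 (-2.61), ITGB4 (-1.79), COL17A1 (-1.04) and DST (-2.84). With the log-odds of the labelled share centred on the median gene, the log2 values for NVP-2 in AsPC-1 were LAMA3 (0.37), ITGA3 (0.59), ITGA6 (0.31), ITGB4 (0.64), CD151 (3.35), COL17A1 (1.78) and DST (0.45). With the log-odds of the labelled share centred on the median gene, the log2 values for NVP-2 in T3M-4 were ITGA3 (2.63), ITGA6 (0.47), ITGB4 (1.36), COL17A1 (1.71) and DST (0.68). The first scaling and the centring differ from the values reported by a shift of all genes, by construction. Of 1368 recomputed values of single genes, 100 lost and 23 gained a call in the same direction, and 88 changed sign without a call on either side. The causes were not tested. The lowest counts were 25 T>C reads for LAMA3 in an AsPC-1 dTAG library and 28 for LAMB3 in a T3M-4 NVP-2 library, so counting error adds to the spread there. The comparison of lines in control libraries called 7 of 9 genes in T>C reads, 7 in the NEG libraries alone and 7 in the DMSO libraries alone, losing ITGA3, PLEC and ITGA6 in that order (8 of 9 reported). The fits with a replicate block changed no other call of the 9 genes in the 4 h and 12 h contrasts.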
